A study of Mus musculus with 16 samples.

Results

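The genes described here encode the mouse receptors for IgG (Fcgr1, Fcgr2b, Fcgr3 and Fcgr4), the neonatal Fc receptor (Fcgrt) and the common gamma chain (Fcer1g). They were chosen by symbol, and all 6 were among the 13085 genes listed and among the 12782 that passed the filter on low values. Their RNA was measured in 16 libraries of monocytes from NFAM1+/+ and NFAM1-/- mice on a C57BL/6 background, in which part of Nfam1 was deleted with CRISPR in zygotes. NFAM1 is a transmembrane receptor with an immunoreceptor tyrosine-based activation motif (ITAM). Cells were cultured for 6 or 24 h, either unstimulated or with both IFN-γ and CD40L (the CD40 ligand, given as MegaCD40L at 1 µg/mL). Each combination of genotype, stimulus and time had 2 libraries, so each stimulus and time had 4. The labels call the cells blood monocytes and the methods take mouse monocytes from bone marrow, and the IFN-γ dose also differs between them, so neither is fixed here. At 24 h, 4 of the 8 libraries have a title and a genotype tag that disagree. Stimulus and time were therefore compared over both genotypes together, and genotype differences and calls at 24 h are given by title and by tag.

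Receptors for IgG let a phagocyte bind antibody-coated particles and immune complexes. Fcgr1, Fcgr3 and Fcgr4 encode activating receptors that signal through the ITAM of the Fcer1g product, which Syk reads after Src family kinases phosphorylate it. Fcgr2b encodes the inhibitory receptor, whose own motif recruits the phosphatase SHIP1 (Inpp5d). Fcgrt encodes the heavy chain of FcRn, which pairs with beta-2 microglobulin (B2m) and returns IgG from endosomes instead of passing it to lysosomes. IFN-γ is a known inducer of the high affinity receptor Fcgr1 in myeloid cells.

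The libraries held 48295939 to 88514341 reads on the listed genes, and the members held 220 reads (Fcgrt) to 71709 reads (Fcer1g) in a library. Levels are CPM (reads of a gene relative to the library's size) on the deposited scaling, and differences are on the log2 scale with standard errors (SE) from limma. Called genes passed both a 2-fold change and an adjusted p (Benjamini-Hochberg) under 0.05. Irf1 and Gbp2, which IFN-γ induces, were higher with stimulus at both times, Irf1 by log2 6.50 at 6 h and 5.35 at 24 h and Gbp2 by 10.20 and 7.85. Nfam1, counted over the whole gene and not over the deleted part, was at 408 and 432 CPM in NFAM1+/+ and 299 and 321 CPM in NFAM1-/- libraries at 6 h without stimulus. With stimulus at 6 h it was at 129 and 133 CPM against 127 and 135 CPM, and at 24 h at 463 and 495 CPM against 391 and 441 CPM without and at 252 and 271 CPM against 201 and 223 CPM with stimulus by title. Nfam1 was thus no check of the labels in stimulated cells at 6 h. The 9 monocyte markers, of which Fcgr1 is itself a member of the set described here, had a summed level of 22520 to 24690 CPM in unstimulated and 8292 to 10150 CPM in stimulated libraries at 6 h, and of 26450 to 30660 and 8365 to 11580 CPM at 24 h. Lyz2 made up most of the unstimulated sum, at 15690 to 17380 CPM at 6 h. Of the 8 markers other than Fcgr1, 7 were lower with stimulus without overlap at each time, and Ly6c2 was higher, at 345 to 503 CPM without and 2200 to 2505 CPM with stimulus at 6 h. The part of these markers in the results was not tested. As these are bulk libraries, fewer cells of a type and less RNA per cell cannot be told apart. None of the 5 markers of NK cells, which express Fcgr3, was among the genes analysed.

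Fcgr1 and Fcgr4 had the largest rises of the 6 genes at 6 h. Fcgr1 lies at chr3:96282909-96293969 and Fcgr4 at chr1:171018920-171029761 (GRCm38, GENCODE vM21), the latter between Fcgr2b and Fcgr3. Fcgr4 was at 5.55 and 7.87 CPM in NFAM1+/+ and 7.86 and 8.27 CPM in NFAM1-/- libraries without stimulus at 6 h. In stimulated libraries it was at 333 and 348 CPM and at 419 and 438 CPM. All 4 stimulated libraries were far above all 4 unstimulated ones, a 52.3-fold difference (log2 5.71, SE 0.15, adjusted p = 1.884e-13). At 24 h Fcgr4 was at 8.78 to 15.7 CPM without and 103 to 143 CPM with stimulus, which is 12.3-fold higher (log2 3.62, SE 0.15). The stimulated level at 24 h was 2.95-fold below that at 6 h, yet no stimulated library came near an unstimulated one.

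Fcgr1 rose from 28.0 and 30.6 CPM in NFAM1+/+ and 32.7 and 35.9 CPM in NFAM1-/- libraries to 620 and 689 CPM and to 741 and 760 CPM at 6 h. That is 22.1-fold (log2 4.47, SE 0.13, adjusted p = 6.926e-13). At 24 h the difference was smaller, with a higher unstimulated and a lower stimulated level than at 6 h. Fcgr1 was then at 62.7 to 107 CPM without and 121 to 151 CPM with stimulus. These ranges did not overlap, and the difference of 1.61-fold (log2 0.69, SE 0.13, adjusted p = 0.0003136) was under the fold threshold. The separation rested on the deposited scaling. When each library was divided by its own total of reads, the ranges overlapped, at 80.4 to 135 CPM without and 122 to 155 CPM with stimulus. Under the alternatives that kept every library or left out those with conflicting labels, the difference was log2 0.36 to 0.87. Fcgr1 and Fcgr4 thus differed in how much of the response was seen at 24 h, since the fold of Fcgr1 over its own time control shrank 13.7-fold and that of Fcgr4 4.25-fold between the harvests.

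The promoters of the 3 activating receptors and, for comparison, of Fcgr2b are shown because Fcgr1 and Fcgr4 rose together while Fcgr2b fell. They are RefSeq sequences (GRCm38.p6) from 250 bases before to 50 bases after a start site, at chr3:96293920-96294219 (minus strand), chr1:171018676-171018975 (plus strand), chr1:171059345-171059644 (minus strand) and chr1:170976022-170976321 (minus strand). Capitals mark matches to the gamma activated site (TTCNNNGAA) or to the PU.1 core (GAGGAA, which reads TTCCTC on the other strand), searched on both strands.
Fcgr1: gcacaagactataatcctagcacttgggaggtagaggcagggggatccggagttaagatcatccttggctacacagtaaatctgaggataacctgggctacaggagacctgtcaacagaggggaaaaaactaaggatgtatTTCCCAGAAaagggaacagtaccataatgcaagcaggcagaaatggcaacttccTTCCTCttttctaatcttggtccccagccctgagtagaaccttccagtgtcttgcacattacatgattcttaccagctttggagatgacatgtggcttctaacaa
Fcgr4: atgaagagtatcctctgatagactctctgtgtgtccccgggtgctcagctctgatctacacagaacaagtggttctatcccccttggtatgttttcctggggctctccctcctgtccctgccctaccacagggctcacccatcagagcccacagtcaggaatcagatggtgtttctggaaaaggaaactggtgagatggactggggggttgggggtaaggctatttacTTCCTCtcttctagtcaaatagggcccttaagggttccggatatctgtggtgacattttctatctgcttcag
Fcgr3: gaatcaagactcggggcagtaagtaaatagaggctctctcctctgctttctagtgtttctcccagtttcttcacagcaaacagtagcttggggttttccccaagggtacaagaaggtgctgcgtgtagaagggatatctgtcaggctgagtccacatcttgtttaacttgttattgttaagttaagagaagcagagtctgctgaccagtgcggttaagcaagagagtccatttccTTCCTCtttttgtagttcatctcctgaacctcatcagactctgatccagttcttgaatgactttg
Fcgr2b: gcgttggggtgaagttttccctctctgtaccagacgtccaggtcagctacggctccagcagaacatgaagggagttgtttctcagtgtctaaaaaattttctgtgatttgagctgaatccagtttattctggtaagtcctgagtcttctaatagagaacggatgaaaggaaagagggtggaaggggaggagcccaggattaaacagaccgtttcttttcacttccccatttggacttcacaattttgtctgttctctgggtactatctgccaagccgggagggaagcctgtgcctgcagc
Of the 6 genes, Fcgr1 held a gamma activated site, at position -109 from the start site, and 8.30% of the 32851 promoters of this length in the table hold one. The PU.1 core was in the windows of Fcgr1 (position -55), Fcgr4 (position -22) and Fcgr3, all on the strand opposite to the gene, and 28.3% of all promoters hold it. No match was in the windows of Fcgr2b, Fcgrt or Fcer1g. The 2 kinds of match did not overlap, and the RefSeq table gives Fcgr3 a second start site with the same match. A match is a description of the letters in this window.

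**Figure D1:**
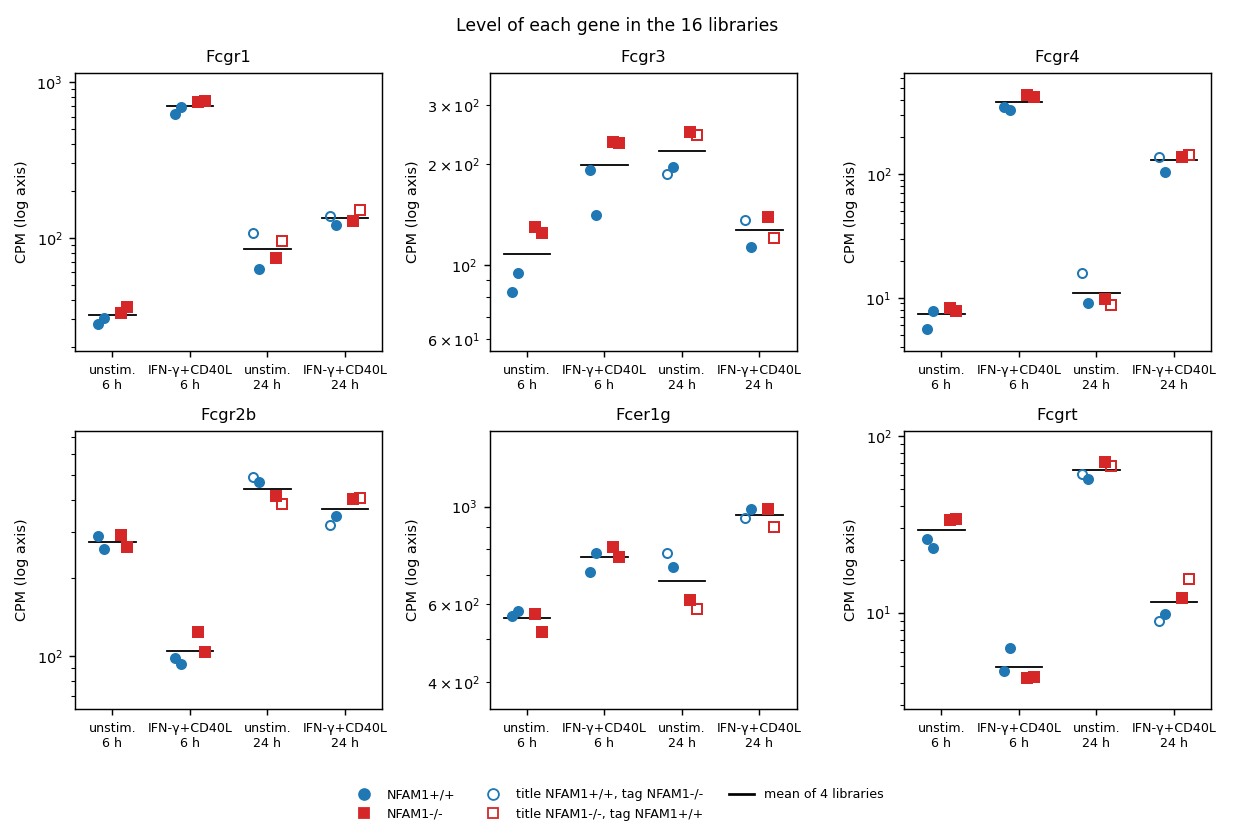
Deposited level (CPM, log axis) of each gene in each of the 16 libraries, by stimulus and time. Circles are libraries titled NFAM1+/+ and squares those titled NFAM1-/-, open symbols have a genotype tag that disagrees with the title, and the line is the mean of 4 libraries. Fcgr4 spans 5.55 to 438 CPM while Fcer1g stays between 520 and 989 CPM.

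Fcgr3, the activating low affinity receptor, moved in opposite directions at the 2 times. It was at 82.8 and 94.4 CPM in NFAM1+/+ and 124 and 130 CPM in NFAM1-/- libraries without stimulus at 6 h, and at 140 and 192 CPM and at 232 and 234 CPM with stimulus. All stimulated libraries were above all unstimulated ones, a difference of 1.85-fold (log2 0.88, SE 0.09, adjusted p = 5.458e-07) that was under the fold threshold. This separation rested on the deposited scaling. With own totals of reads the ranges overlapped, at 108 to 168 CPM without and 107 to 184 CPM with stimulus. The difference was then log2 0.15. At 24 h Fcgr3 was at 186 to 250 CPM without and 113 to 139 CPM with stimulus. There the stimulated libraries were all below the unstimulated ones, by 1.71-fold (log2 -0.78, SE 0.09, adjusted p = 2.56e-06). In the same libraries the 10 neutrophil markers had a summed level of 544 to 942 CPM without and 124 to 212 CPM with stimulus, and the 5 dendritic cell markers 136 to 288 and 21.5 to 29.5 CPM. Zbtb46, a dendritic cell marker, went the other way, at 4.07 to 7.26 CPM without and 13.95 to 21.74 CPM with stimulus. Xcr1, also a dendritic cell marker, did not fall either, at 0.298 to 0.708 CPM without and 0.667 to 1.44 CPM with stimulus. Of 7 B cell markers 4 were among the genes analysed, with a sum of 135 to 209 CPM without and 40.7 to 51.3 CPM with stimulus. At 6 h that sum was 187 to 265 CPM without and 378 to 551 CPM with stimulus. Ighm rose at 6 h, Cd79a and Cd79b were lower, and Igkc overlapped at both times. The part of these markers in this result, and in the other stimulus differences, was not tested. Because Fcgr3 and Fcgr2b are close relatives, 2.58% of the 101-base windows in coding transcripts of Fcgr3 are also in Fcgr2b, so few reads could be shared. Of the 3869 windows of Fcgr2b, 77 (1.99%) are also in another gene, 42 of them in Fcgr3. Further windows of Fcgr2b match other genes on the other strand, 127 of them Cplx2, and are not in that share, though reads were unstranded. Fcgr1, Fcgr4, Fcgrt and Fcer1g shared no such window with another gene.

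Fcgr2b, the inhibitory receptor at chr1:170958617-170976547, fell with stimulus at 6 h. It was at 260 and 290 CPM in NFAM1+/+ and 262 and 293 CPM in NFAM1-/- libraries, and at 93.3 and 98.3 CPM and 104 and 123 CPM with stimulus. Every stimulated library was below every unstimulated one, by 2.65-fold (log2 -1.41, SE 0.06, adjusted p = 6.989e-11). At 24 h the ranges overlapped, at 385 to 491 CPM without and 321 to 407 CPM with stimulus. The difference was then 1.19-fold lower (log2 -0.25, SE 0.06, adjusted p = 0.002405). When each library was divided by its own total of reads, these ranges did not overlap, at 495 to 623 CPM without and 322 to 419 CPM with stimulus. Under the alternatives that kept every library or left out those with conflicting labels, the difference was log2 -0.72 to -0.24. By title, which disagrees with the tag for 4 of the 8 libraries, it was -0.52 in NFAM1+/+ and 0.02 in NFAM1-/- cells. In stimulated cells alone, Fcgr2b was 3.53-fold higher at 24 h than at 6 h (log2 1.82, SE 0.06).

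Fcgrt, at chr7:45092990-45103851, fell with stimulus at both times. It was at 23.3 and 26.3 CPM in NFAM1+/+ and 33.5 and 33.8 CPM in NFAM1-/- libraries without stimulus at 6 h, and at 4.68 and 6.31 CPM and 4.26 and 4.33 CPM with stimulus. The fall was 5.97-fold (log2 -2.58, SE 0.10, adjusted p = 1.5e-11). At 24 h it was at 57.0 to 71.0 CPM without and 8.93 to 15.4 CPM with stimulus, 5.66-fold lower (log2 -2.50, SE 0.10, adjusted p = 2.813e-11). The differences at the 2 times differed by log2 0.08 (95% interval -0.23 to 0.39, adjusted p = 0.6492). B2m, the light chain partner of FcRn and of class I molecules, went the other way. It was at 1208 to 1463 CPM without and 6307 to 6963 CPM with stimulus at 6 h (log2 2.32, SE 0.08), and 4.34-fold higher at 24 h (log2 2.12, SE 0.08).

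Fcer1g, the signalling chain at chr1:171229572-171234365, varied least. It was at 563 and 580 CPM in NFAM1+/+ and 520 and 569 CPM in NFAM1-/- libraries without stimulus at 6 h, and at 711 and 785 CPM and 769 and 808 CPM with stimulus. At 24 h it was at 585 to 784 CPM without and 901 to 989 CPM with stimulus. These ranges did not overlap at either time, and the differences were log2 0.46 (SE 0.06, adjusted p = 3.334e-06) and 0.50 (SE 0.06, adjusted p = 1.519e-06). Its direction rested on the scaling between libraries, as described next.

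With stimulus at 6 h, 4 of the 6 members were called, Fcgr1 and Fcgr4 higher and Fcgr2b and Fcgrt lower. Of all genes tested, 39.7% were called, 19.1% higher and 20.6% lower, so the number called was not far from the share among all genes. At 24 h, 2 of the 6 were called, Fcgr4 higher and Fcgrt lower, against 33.3% of all genes (14.6% higher and 18.7% lower). All 6 members passed the adjusted p alone at both times, as did 78.3% of all genes at 6 h and 74.8% at 24 h. By size, Fcgr4 ranked 307 from the highest log2 difference of the 12782 genes at 6 h and 438 at 24 h, and Fcgr1 ranked 489 and 2736. The differences hold with the deposited scaling, in which the CPM of a library sum to 0.756 to 0.775 times their nominal total without and 1.24 to 1.32 times with stimulus at 6 h. Dividing by each library's own total of reads instead moved the median of all genes from log2 -0.13 to -0.86 at 6 h and from 0.01 to -0.33 at 24 h, and the genes called higher and lower from 2440 and 2629 to 1562 and 5563 at 6 h and from 1867 and 2389 to 1435 and 3281 at 24 h.

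**Figure D2:**
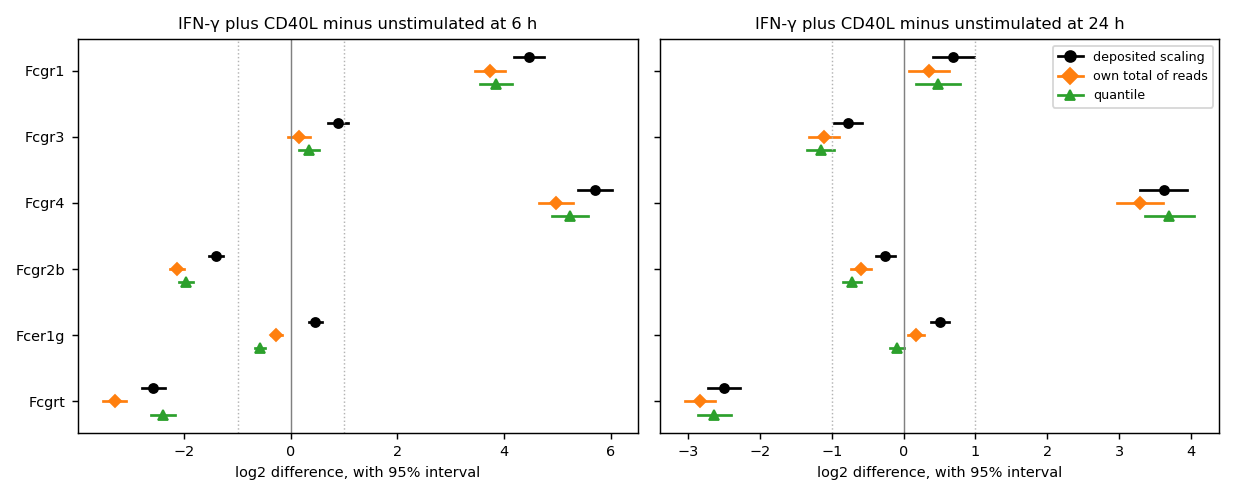
Log2 difference between stimulated and unstimulated cells (x axis, with 95% interval) for each gene at 6 and 24 h, with 8 libraries per panel, under the deposited scaling, own totals and quantile normalization. Dotted lines mark a fold change of 2. Fcgr4, Fcgr1, Fcgr2b and Fcgrt keep their side of 0 at 6 h, and Fcer1g moves from 0.46 to -0.27 and -0.58.

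Under the other scalings the stimulus difference of Fcgr4 at 6 h was log2 4.98 to 5.88, that of Fcgr1 3.74 to 4.64, that of Fcgr2b -2.14 to -1.24 and that of Fcgrt -3.31 to -2.40, all with the same calls. Fcgr3 at 6 h was at 0.15 with own totals, at 0.33 with quantile normalization and at 1.05 with median centring, where it was called. At 24 h it was at -1.11 and -1.15 with own totals and quantile normalization, and called in both. Fcer1g at 6 h was lower with stimulus under own totals (-0.27) and quantile normalization (-0.58). Relative to the median of all genes it was 0.59 higher with the deposited scaling and with own totals, and at -0.35 with quantile normalization.

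Ratios between genes of the same library do not change when a library is scaled by 1 factor, as with own totals or median centring, but do with quantile normalization, which was not applied to them. Levels were divided by exonic length (union of exons in the basic GENCODE vM21 annotation) and are given as CPM per kb. Without stimulus at 6 h the order was Fcer1g (695 to 775 CPM per kb), then Fcgr3 (61.4 to 96.2) and Fcgr2b (68.1 to 77.0), whose ranges overlap, then Fcgrt (13.1 to 19.0) and Fcgr1 (10.8 to 13.9), which overlap too, and Fcgr4 (4.42 to 6.59). With stimulus at 6 h the order was Fcer1g (951 to 1080), then Fcgr4 (265 to 349) and Fcgr1 (240 to 293), which overlap, then Fcgr3 (104 to 174), Fcgr2b (24.5 to 32.3) and Fcgrt (2.39 to 3.54). At 24 h without stimulus it was Fcer1g (782 to 1048), Fcgr3 (138 to 185), Fcgr2b (101 to 129), then Fcgrt (32.0 to 39.9) and Fcgr1 (24.2 to 41.2), which overlap, and Fcgr4 (6.99 to 12.5). With stimulus at 24 h Fcgr4 (82.2 to 114), Fcgr2b (84.3 to 107) and Fcgr3 (84.2 to 103) overlapped, above Fcgr1 (46.6 to 58.2) and Fcgrt (5.01 to 8.66) and below Fcer1g (1204 to 1322).

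The summed level of the 3 activating receptors per kb was 1.01 to 1.63 times that of Fcgr2b without stimulus at 6 h, and 25.0 to 29.3 times with stimulus. The median ratio was 18.4-fold higher with stimulus. At 24 h the ratio was 1.44 to 2.23 without and 2.34 to 3.12 with stimulus, a 1.40-fold difference of medians, so most of the difference seen at 6 h was not present at 24 h. Within the activating sum, Fcgr3 made up 79.5% to 83.4% in unstimulated libraries at 6 h and 16.4% to 21.6% in stimulated ones, and at 24 h 72.0% to 83.6% and 34.1% to 39.5%. Fcgr4 made up 5.57% to 7.10% without and 41.7% to 43.1% with stimulus at 6 h. At 24 h its share was 3.10% to 6.52% without and 38.6% to 43.6% with stimulus, so in stimulated cells its share at 24 h covered the range seen at 6 h while its CPM was lower. The share of Fcgr1 in stimulated cells was 35.4% to 41.9% at 6 h and 18.9% to 22.3% at 24 h. Fcer1g RNA was 6.18 to 9.82 times the activating sum per kb without stimulus at 6 h and 1.29 to 1.65 times with it. At 24 h it was 3.47 to 5.51 times without and 4.61 to 6.21 times with stimulus. This ratio was lower in libraries titled NFAM1-/- than in those titled NFAM1+/+, except with stimulus at 24 h. Without stimulus it was at 6.18 to 6.59 against 8.79 to 9.82 at 6 h, and at 3.47 to 3.71 against 5.46 to 5.51 at 24 h. With stimulus it was at 1.29 to 1.34 against 1.44 to 1.65 at 6 h, and overlapped at 24 h, at 4.61 to 5.02 against 4.80 to 6.21. By tag the unstimulated libraries at 24 h overlapped, at 3.71 and 5.46 against 3.47 and 5.51. For comparison, the titled genotypes did not overlap for 42.2% and 42.4% of all genes at 6 h, and for 45.4% and 48.2% at 24 h. The split was not tested.

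**Figure D3:**
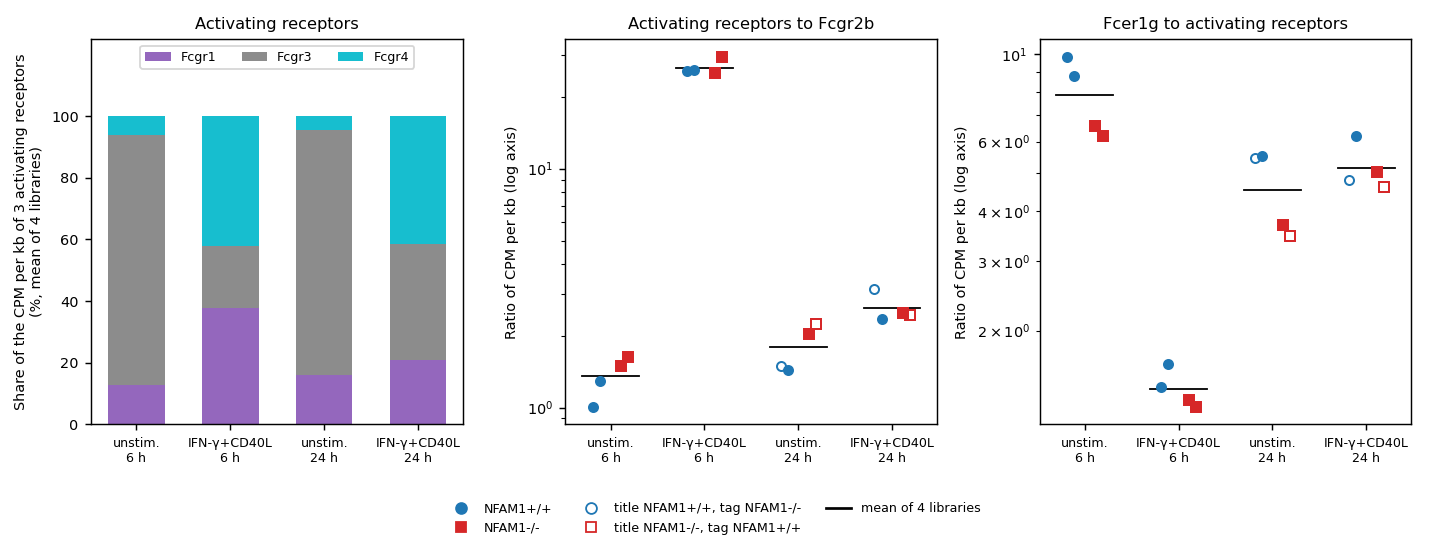
Left, mean share (%) of Fcgr1, Fcgr3 and Fcgr4 in their summed CPM per kb over 4 libraries; middle, ratio of that sum to Fcgr2b; right, ratio of Fcer1g to that sum, both on log axes with a point per library and a line at the mean. The ratio to Fcgr2b sits at 25.0 to 29.3 in stimulated libraries at 6 h and at 1.01 to 3.12 in all other libraries.

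Levels differed between the harvests at 6 and 24 h. In unstimulated cells all 6 members were higher at 24 h than at 6 h with an adjusted p under 0.05. Of all genes 34.3% were higher and 30.1% lower at that threshold, 64.4% in either direction. Of the members 3 were called, all higher: Fcgr1 (log2 1.39, SE 0.13), Fcgrt (1.15, SE 0.10) and Fcgr3 (1.04, SE 0.09), against 21% of all genes, 13.2% higher and 7.76% lower. Fcgr3 lost its call, at log2 0.99, without the first NFAM1+/+ library of the unstimulated cells at 6 h. Fcgr2b (0.67, SE 0.06), Fcgr4 (0.53, SE 0.15) and Fcer1g (0.27, SE 0.06) were under the fold threshold. The 10 neutrophil markers had a summed level of 72.9 to 229 CPM at 6 h and 544 to 942 CPM at 24 h in unstimulated libraries. The sum of the 5 dendritic cell markers was 46.9 to 63.2 and 136 to 288 CPM. Not every marker rose with its sum. Elane was at 3.09 to 6.49 CPM at 6 h and 0.0979 to 5.07 CPM at 24 h, and Mpo at 3.83 to 7.52 and 1.46 to 6.34 CPM. Xcr1, a dendritic cell marker, was lower at 24 h, at 0.774 to 1.31 and 0.298 to 0.708 CPM. In stimulated libraries the neutrophil sum was 88.1 to 361 CPM at 6 h and 124 to 212 CPM at 24 h. Their part in the result was not tested. Whatever else differed between the harvests cannot be told apart from time.

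In stimulated cells the members split by direction. Fcgr1 (log2 -2.39, SE 0.13) and Fcgr4 (-1.56, SE 0.15) were lower at 24 h than at 6 h, and Fcgr2b (1.82, SE 0.06) and Fcgrt (1.23, SE 0.10) were higher. These 4 of 6 were called, against 33.7% of all genes (16.5% higher and 17.2% lower). Fcgr3 (-0.62, SE 0.09) and Fcer1g (0.32, SE 0.06) also passed the adjusted p, as 76.4% of all genes did, but not the fold threshold. Own totals moved the median of all genes from 0.04 to 0.41 and the genes called higher and lower from 2111 and 2197 to 3390 and 1500, and left these directions as they were.

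The stimulus difference itself changed between 6 and 24 h for 4 of the 6 members, all called. It was smaller at 24 h by log2 3.78 for Fcgr1 (interaction -3.78, SE 0.19, adjusted p = 1.487e-09) and by 2.09 for Fcgr4 (-2.09, SE 0.21). It turned from higher to lower for Fcgr3 (-1.66, SE 0.13, adjusted p = 7.866e-08), and was less negative at 24 h for Fcgr2b (1.15, SE 0.09, adjusted p = 9.185e-08). With own totals the rise of Fcgr3 at 6 h was log2 0.15, with overlapping libraries. Of all genes 31.5% were called in this comparison, 13.3% with a positive and 18.2% with a negative interaction, and 67.2% passed the adjusted p alone. Fcgrt and Fcer1g did not pass it, and the interval for Fcer1g was -0.13 to 0.21 around 0.04. With median centring Fcgr2b was at log2 1.00 and just under the fold threshold. With own totals the genes called with a positive and negative interaction went from 1696 and 2328 to 3239 and 1566.

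Between genotypes no member was called in any of the comparisons. In unstimulated cells at 6 h 0.0861% of all genes were called, in stimulated cells at 6 h 0% and in the interaction 0%. The numbers of genes with an unadjusted p under 0.05 in limma were 1289, 1862 and 1090. At 6 h Fcgr3 had the lowest adjusted p among the members in each condition. Its NFAM1-/- libraries were above its NFAM1+/+ libraries in both conditions. The limma difference was log2 0.52 without stimulus (SE 0.13, adjusted p = 0.1287) and 0.50 with it (SE 0.13, adjusted p = 0.1416). Averaged over both conditions, a comparison chosen after seeing the data, the difference was 1.43-fold (log2 0.51, 95% interval 0.32 to 0.71, adjusted p = 0.03241). Of all genes 0.383% passed that threshold. The adjusted p was 0.001023 to 0.1204 when each library at 6 h was left out in turn, at log2 0.40 to 0.63, and was above 0.05 without any of libraries 1, 3, 4, 26, 11 or 12. It was 0.04247 with own totals.

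The genotypes did not overlap for 3 of the 6 members in unstimulated cells at 6 h (Fcgr1, Fcgr3 and Fcgrt) and for 5 in stimulated cells (all but Fcer1g), against 42.2% and 42.4% of all genes. Fcgr1 and Fcgr3 were higher in NFAM1-/- libraries in both conditions with no overlap, as were 6.08% of all genes. The difference of Fcgr1 averaged over both conditions was log2 0.21 (95% interval -0.07 to 0.50), that of Fcgr4 0.31 (-0.01 to 0.63), that of Fcgr2b 0.13 (-0.01 to 0.26), and that of Fcer1g 0.00 (-0.12 to 0.12). Fcgrt was higher in NFAM1-/- cells without stimulus (log2 0.45, SE 0.14, adjusted p = 0.2839) and lower with it (-0.34, SE 0.14, adjusted p = 0.3008). The interaction was -0.79 (SE 0.20, adjusted p = 0.3634), which did not pass. Without the second NFAM1+/+ library of stimulated cells at 6 h, which left 1 library in that group, it was -1.0. The stimulus difference at 6 h was log2 -2.19 in NFAM1+/+ and -2.97 in NFAM1-/- cells for Fcgrt, 5.69 and 5.73 for Fcgr4, 4.48 and 4.45 for Fcgr1, 0.89 and 0.88 for Fcgr3, -1.52 and -1.30 for Fcgr2b and 0.39 and 0.53 for Fcer1g. No member passed the interaction test. The intervals of the interaction, -0.60 to 0.69 for Fcgr4 and -0.60 to 0.54 for Fcgr1, leave room for differences of up to about that size.

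**Figure D4:**
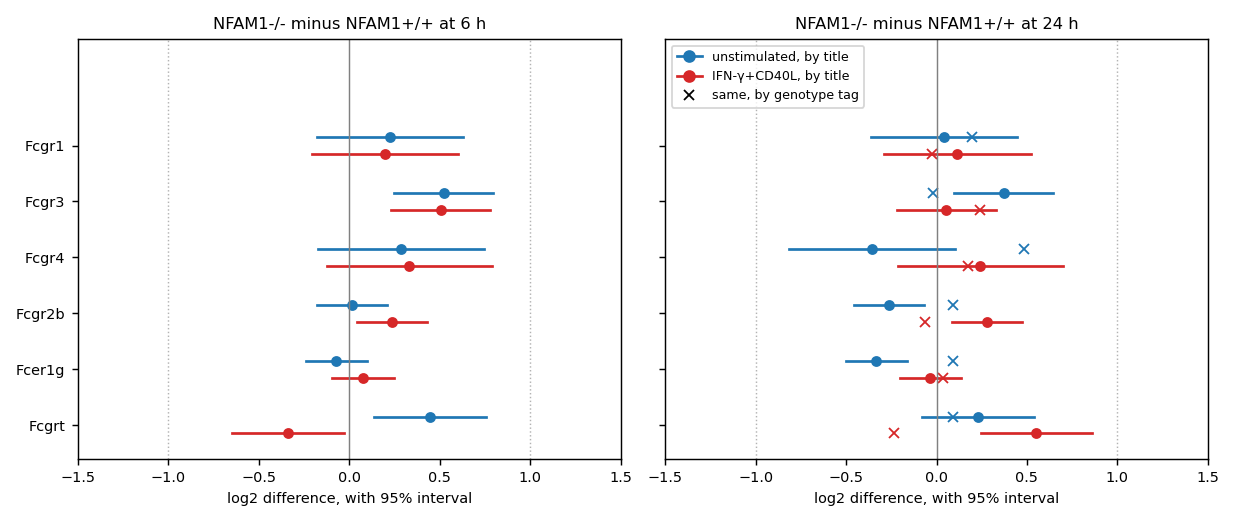
Log2 difference between NFAM1-/- and NFAM1+/+ cells (x axis, with 95% interval) at 6 h and 24 h, unstimulated and stimulated, by title with 2 libraries per genotype. Crosses at 24 h give the value by genotype tag. Fcgr3 lies at 0.52 and 0.50 at 6 h, and at 24 h Fcgrt with stimulus moves from 0.55 by title to -0.24 by tag.

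At 24 h the sign of several genotype differences depended on the label used. By title 0.289% of all genes were called in unstimulated and 0.579% in stimulated cells, and by tag 0.0156% and 0.0235%, and none of the 6 members by either label. The libraries did not overlap by title for 4 members without stimulus (Fcgr2b, Fcgr3, Fcgrt and Fcer1g) and for 3 with stimulus (Fcgr2b, Fcgr4 and Fcgrt), against 45.4% and 48.2% of all genes. By tag they did not overlap for 1 member without stimulus (Fcgr4) and 1 with it (Fcgr3), against 25.5% and 29.3% of all genes. Fcgr3 without stimulus was 0.37 higher by title (adjusted p = 0.2661), -0.02 by tag and 0.35 between the libraries whose labels agree. Fcgrt with stimulus was at 12.1 and 15.4 CPM in libraries titled NFAM1-/- and at 8.93 and 9.76 CPM in those titled NFAM1+/+. That difference was log2 0.55 by title (SE 0.14, adjusted p = 0.0644), -0.24 by tag and 0.31 between agreeing libraries. Fcer1g without stimulus was at 585 and 614 CPM against 727 and 784 CPM by title, a difference of -0.33 (SE 0.08, adjusted p = 0.0718) that was 0.09 by tag and -0.24 between agreeing libraries. Without stimulus the other differences were 0.04 by title and 0.20 by tag for Fcgr1, -0.26 and 0.09 for Fcgr2b, -0.36 and 0.49 for Fcgr4 and 0.23 and 0.09 for Fcgrt. With stimulus they were 0.12 and -0.02 for Fcgr1, 0.28 and -0.06 for Fcgr2b, 0.05 and 0.24 for Fcgr3, 0.24 and 0.18 for Fcgr4 and -0.03 and 0.03 for Fcer1g. Nfam1 at 24 h differed by log2 -0.20 without and -0.30 with stimulus by title, neither passing (adjusted p = 0.3479 and 0.06765), by 0.04 and -0.02 by tag and by -0.17 and -0.33 between agreeing libraries.

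The genes that receptors for IgG signal through were read as lists. Of all genes, 19.1% were called higher and 20.6% lower with stimulus at 6 h, and 14.6% and 18.7% at 24 h. With own totals 1562 and 5563 of all 12782 genes were called at 6 h, and 1435 and 3281 at 24 h. Of 8 proximal kinases, 3 were called higher and 0 lower with stimulus at 6 h, and 4 higher and 1 lower at 24 h. Fyn, a Src family kinase, rose most at 6 h, from 87.1 to 107 CPM in unstimulated to 501 to 562 CPM in stimulated libraries (log2 2.41, SE 0.07). At 24 h Src rose most (log2 2.21), at 1.20 to 3.29 CPM without and 9.01 to 12.2 CPM with stimulus, and Tec, of the Btk family, fell most (-1.78). Syk was at 428 to 464 CPM without and 382 to 486 CPM with stimulus at 6 h (log2 -0.05, adjusted p = 0.4097) and at 541 to 614 and 625 to 733 CPM at 24 h (0.24, adjusted p = 0.001592). With own totals Syk was at -0.78 and -0.09 and with median centring at 0.12 and 0.25. Relative to the median of all genes Syk was at 0.07 and 0.23 with each of these scalings, and at -0.78 and -0.30 with quantile normalization. With own totals 1 kinase was called higher at 6 h and 3 at 24 h, with 0 and 1 lower.

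Of 17 adaptors and effectors tested, 5 were called higher and 2 lower at 6 h, and 2 higher and 2 lower at 24 h, and with own totals 1 and 3, and 2 and 3. Pik3ap1, an adaptor for PI3 kinase, rose most at 6 h (log2 2.51) and Card9, which links ITAM receptors to NF-κB, fell most (-1.65). At 24 h Malt1, the protease partner of Card9 complexes, rose most, from 68.3 to 98.9 CPM without to 1020 to 1285 CPM with stimulus (3.81), and Vav3, a guanine nucleotide exchange factor, fell most (-2.50). Of 15 inhibitors tested, 2 were called higher and 3 lower at 6 h, and 4 and 3 at 24 h, and with own totals 2 and 5, and 2 and 6. The adaptor Dok2 rose most at 6 h (2.87) and the ubiquitin ligase Cblb at 24 h (1.40). The phosphatase Ptpn22 fell most at both times (-3.52 and -3.35), at 80.7 to 96.5 CPM without and 6.53 to 9.30 CPM with stimulus at 6 h. Inpp5d, the partner of the Fcgr2b product, was at 274 to 298 CPM without and 251 to 272 CPM with stimulus at 6 h (-0.14, adjusted p = 0.05154, and 0.02 with median centring) and fell at 24 h by 0.83 on the log2 scale, short of the fold threshold.

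Of 13 receptors and adaptors that use or resemble the gamma chain, 2 were called higher and 5 lower at 6 h, and 3 and 3 at 24 h. The shares of all genes were 19.1% and 20.6%, and 14.6% and 18.7%. With own totals the list had 2 and 6, and 3 and 8, against 1562 and 5563, and 1435 and 3281, of all 12782 genes. Cd300lb, an activating receptor of myeloid cells, fell most at both times, from 282 to 328 CPM without to 1.07 to 2.42 CPM with stimulus at 6 h (log2 -7.51) and from 220 to 242 to 0.785 to 1.30 CPM at 24 h (-7.88). The largest rise was that of Gp6, the platelet collagen receptor that uses the gamma chain, at low counts of 0 to 8 reads without and 41 to 100 with stimulus at 6 h and 0 reads without and 170 to 396 with stimulus at 24 h. Tyrobp, the other ITAM adaptor of myeloid cells, was at 817 to 870 CPM without and 587 to 762 CPM with stimulus at 6 h (-0.34, SE 0.06) and at 819 to 938 and 461 to 526 CPM at 24 h (-0.79, SE 0.06). Fcer1g and Tyrobp thus lay on different sides of 0 with the deposited scaling, and under own totals and quantile normalization both were lower at 6 h.

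**Figure D5:**
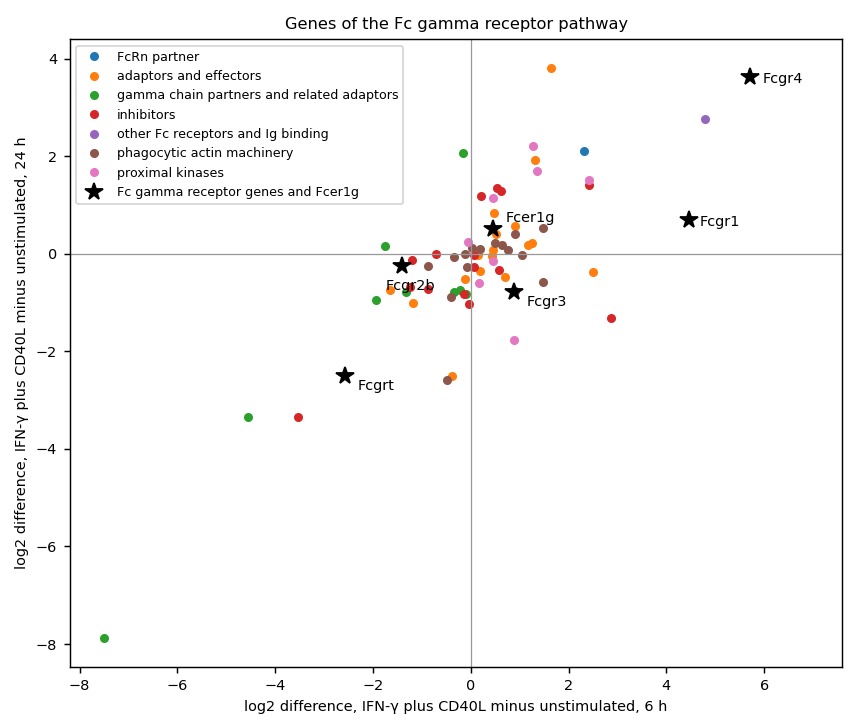
Log2 difference between stimulated and unstimulated cells at 6 h (x axis) and 24 h (y axis) for 67 of the 76 pathway genes tested, those with a mean of at least 10 CPM in some condition, coloured by list, with the 6 members as stars. Fcgr4 lies at 5.71 and 3.62, and Fcgr3 at 0.88 and -0.78, on opposite sides of 0 at the 2 times.

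A further list held other Fc receptors, Fc receptor-like genes and immunoglobulin binding proteins. Of its 6 genes tested, 2 were called higher and 4 lower at 6 h and 2 and 3 at 24 h, with the same numbers under own totals. Trim21, a cytosolic receptor for antibody named here after its values were seen, was at 8.30 to 10.7 CPM without and 256 to 275 CPM with stimulus at 6 h (log2 4.79, SE 0.07) and rose by 2.76 at 24 h. Fcrl6 rose most by log2 value, at low counts of 0 to 10 reads without and 84 to 138 with stimulus at 6 h, and of 0 to 6 and 27 to 69 at 24 h. Fcer2a, the low affinity IgE receptor of B cells, fell most, at 116 to 208 reads without and 0 to 9 with stimulus at 6 h, and 36 to 136 and 0 to 10 at 24 h. Of 16 genes of the phagocytic actin machinery, 3 were called higher and 0 lower at 6 h, and 0 and 1 at 24 h. Actr2, of the Arp2/3 complex, rose most at 6 h (1.48, and 0.75 with own totals, where it was not called) and Coro1a fell most at 24 h (-2.59). With own totals 0 were called higher and 4 lower at 6 h. Relative to the median of all genes, the median of the list at 6 h was 0.47 with both of these scalings and -0.36 with quantile normalization. These lists are read beside the shares of all genes given above, and nothing is taken from them as particular to the pathway.

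Over the 16 libraries, Fcgr1 and Fcgr4 followed each other (Pearson r of log2 values 0.91), and Fcgr4 ran opposite to Fcgrt (-0.91). Fcgr3 was not close to any of the others (0.52 with Fcgr1, 0.23 with Fcgr4 and -0.16 with Fcgr2b). The 3 genes most like Fcgr1 were Glrx, Slc25a12 and Meis3 (r 0.99 each), those most like Fcgr4 were Gm49342, Rab5c and Mxd1 (1.00, 1.00 and 0.99), those most like Fcgr2b Dym, Triap1 and Nagpa (0.99 each) and those most like Fcgrt Peli2, Vsir and B3gnt8 (0.99 each). Fcer1g was most like Efhd2, Plgrkt and Rab20 (0.98, 0.96 and 0.96). Fcgr3 was most like Tspan13, Rere and Tmem154 (0.94, 0.90 and 0.89). The number of other genes with r of at least 0.9 was 1192 for Fcgr4, 830 for Fcgr2b, 798 for Fcgrt, 573 for Fcgr1, 139 for Fcer1g and 1 for Fcgr3. These libraries share 4 combinations of stimulus and time, so r mostly describes the pattern over those.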

How the data were processed

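RNA was sequenced as polyA-selected, unstranded paired reads. The authors deposited 1 table of log2 CPM values for 13085 genes and 16 libraries, and their processing notes name STAR, FastQC, edgeR and limma and the build GRCm39, with versions not given in the sources used here. The deposited log2 values hold whole reads plus 0.5 over a scaled library size, and every value gave a whole number of reads within 0.05, so depth was recovered for all libraries. Intervals from limma cover the spread between libraries. The labels do not say which mouse a library came from, and the study names fewer mice than there are libraries here, so libraries may share mice. The fit took all 16 as independent, and p-values measure only the spread between these samples, which may be technical.

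The filter kept genes that reached 1 CPM in 2 or more libraries. limma 3.58.1 (R 4.3.3, statmod 1.5.0) was fitted to the deposited log2 values of all 16 libraries with a variance trend and 1 term for each of the 8 groups of the titles, and p-values were adjusted over all 12782 genes by Benjamini-Hochberg. The fit was tested on simulated data. Calls needed a fold change of at least 2 and an adjusted p under 0.05. Named genes were the 6 members, the called gene with the largest rise and fall of each pathway list, Syk, Inpp5d, Tyrobp, B2m, Irf1, Gbp2, Nfam1 and the 3 genes most like each member, and 1 further gene of this rule is not reported here. The members, lists and tests were chosen with earlier results of these data known. Gene positions, lengths and promoters are from GRCm38 (GENCODE vM21 and RefSeq), an older build than that of the notes, and were matched by symbol for all 6 members. The alternatives left out the filter or set it at a mean of 5 CPM, or used own totals, median centring, quantile normalization, log2 of CPM plus 1, no trend, robust variance, voom weights from the recovered reads, the groups compared alone, the genotype tag, leaving out the 4 libraries with conflicting labels, no genotype at 24 h, no minimum fold change and each library left out in turn. Genotype averaged over both conditions at 6 h and lengths of the longest coding transcript were added after seeing the data.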

Additional observations from a re-analysis of the deposited data

Results flagged for a closer look

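The stimulus difference was tested between 6 and 24 h, and 4 of the 6 genes differed between the times by the interaction test in limma. The interaction, as the log2 stimulus difference at 24 h minus that at 6 h, was -3.78 for Fcgr1, -2.09 for Fcgr4, -1.66 for Fcgr3 and 1.15 for Fcgr2b. Fcgr3 was the gene with opposite directions at the 2 times, though its rise at 6 h was log2 0.15 with own totals. Fcgr2b was under the fold threshold with median centring. Groups held 2 libraries each, so no library was tested as standing apart from its group.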

How the results depend on the processing

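No paired analysis was possible because the library numbers in the labels are unique and no number is shared between groups. With no minimum fold change, 6 members passed with stimulus at 24 h and 6 with time in unstimulated cells. Leaving out 1 library gave 0 to 1 called members in the genotype by stimulus interaction at 6 h and 2 to 3 with time in unstimulated cells. Values that turned direction were as follows, and the cause was not tested. Fcer1g with stimulus was at -0.27 (own totals) and -0.58 (quantile normalization) at 6 h and at -0.099 (quantile normalization) at 24 h. The stimulus by time interaction of Fcgrt was -0.079 (median centring), -0.23 (quantile normalization), -0.044 (CPM plus 1) and -0.030 to 0.19 without single libraries, and that of Fcer1g -0.11 (median centring). With the genotype tag at 24 h, unstimulated Fcgr2b was at 0.089, Fcgr3 at -0.021, Fcgr4 at 0.49 and Fcer1g at 0.090, and stimulated Fcgr1 at -0.024, Fcgr2b at -0.064, Fcgrt at -0.24 and Fcer1g at 0.034. Without the libraries with conflicting labels unstimulated Fcgr4 was at 0.13, and stimulated Fcer1g was at 0.023 with quantile normalization. The genotype by stimulus interaction of Fcgr4 at 6 h was -0.019 with voom weights. Averaged over both conditions at 6 h, chosen after seeing the data, Fcgrt was at 0.054 and Fcer1g at 0.0024. Leaving out single libraries gave genotype differences from -0.065 to 0.098 for Fcgr2b (unstimulated, 6 h), -0.10 to 0.048 for Fcgr1, -0.24 to 0.21 for Fcgr3 and -0.21 to 0.30 for Fcgr4 (interaction, 6 h), -0.34 to 0.42 for Fcgr1 and -0.76 to 0.048 for Fcgr4 (unstimulated, 24 h), and -0.0003 to 0.23 for Fcgr1, -0.079 to 0.19 for Fcgr3 and -0.10 to 0.033 for Fcer1g (stimulated, 24 h). No genotype difference that turned was called. Under the alternatives, 850 member values in stimulus and time comparisons kept their direction and side of the threshold, 9 turned, 3 gained and 2 lost a call, and in genotype comparisons 840 kept both, 29 turned and 1 gained a call. The lowest count of a member in a library was 220 reads.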
